A study of Mus musculus with 28 samples.

Results

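The acetylated chromatin around 9 transcription factor genes of the lung and gut endoderm was followed in mouse lung adenocarcinoma cells: Foxa1, Foxa2, Hnf4a, Gata6, Nkx2-1, Sox9, Sox2, Klf4 and Klf5, out of 21896 protein-coding RefSeq genes. H3K27ac, acetylated lysine 27 of histone H3, which marks enhancers and promoters in use, and H3K9ac, acetylated lysine 9 of that histone, which lies mostly at promoters in use, were profiled by chromatin immunoprecipitation and sequencing. Overlapping peaks of the 12 libraries of a mark were merged into regions, and every region within 50 kb of a gene body was taken. That gave 30 of 32703 H3K27ac regions and 21 of 20543 H3K9ac regions, of which 8 per mark lay within 1 kb of an annotated gene end and are called end regions here.

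Res_shFabp7 cells carried a knockdown of Fabp7 by short hairpin RNA, in resistant cells. Fabp7 encodes a fatty acid binding protein. Res_Ctrl cells were resistant cells whose genotype the labels give as Control, without saying what the control was. Res cells were PD-1-resistant wild-type cells under PD-1 inhibitor treatment, and Sen cells were PD-1-sensitive wild-type cells. PD-1 is the receptor on T cells that checkpoint antibodies block. All 4 groups were grown in the same serum medium (RPMI-1640), and each mark had 3 libraries per group, called biological replicates. The sources used here do not say whether these came from separate cultures, so p-values measure the spread between these libraries. Nor do they say from how many clones the cells came.

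Foxa1 and Foxa2 are forkhead pioneer factors that open closed chromatin in the foregut endoderm, and Hnf4a is a nuclear receptor that drives hepatocyte and intestinal genes. Gata6 is a zinc finger factor of the endoderm, and Nkx2-1 is the homeobox factor that defines the lung lineage. Sox9 marks the distal tip progenitors of the developing lung, whereas Sox2 marks the proximal airways. Klf4 and Klf5 are zinc finger factors of differentiating and proliferating epithelia. In lung adenocarcinoma, loss of NKX2-1 is known to be followed by a gastric programme that depends on Foxa1, Foxa2 and Hnf4a.

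The promoters of 6 of the genes were in the RefSeq promoter table (build GRCm38.p6, the mm10 assembly), as 9 windows of 250 bases before and 50 after a transcription start. Of these windows 5 are shown: those of Hnf4a, where peaks covered 1 start and not the other, those of Foxa1 and Foxa2 that match 2 different motifs, and that of Sox2, where peaks were called after the knockdown. Capitals mark matches, on either strand, to 6 motifs: TGTTTNC of forkhead factors, CAAAGTC of Hnf4, AGATAA of GATA factors, CATTGT of Sox factors, CAAGTG of Nkx2-1 and GGGNGTG of Klf factors. These letters occur by themselves in 20.5%, 4.44%, 11.2%, 12.6%, 13.6% and 29.2% of all 32851 promoter windows, in that order, and a match is only a description. The 2 Hnf4a windows are on the plus strand, at chr2:163506607-163506906 and chr2:163546905-163547204. The upstream one, known as P2 and used in fetal liver, stomach and pancreas, held a forkhead match at position 13 and a GATA match at position 199. The downstream one, P1 of the adult liver, held a KLF match at position 163.
Hnf4a upstream start: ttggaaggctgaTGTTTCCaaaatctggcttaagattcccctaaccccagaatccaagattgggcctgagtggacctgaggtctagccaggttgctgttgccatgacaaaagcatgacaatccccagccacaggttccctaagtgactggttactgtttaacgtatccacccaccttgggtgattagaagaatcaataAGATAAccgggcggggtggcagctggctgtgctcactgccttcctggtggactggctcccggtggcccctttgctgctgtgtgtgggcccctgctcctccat
Hnf4a downstream start: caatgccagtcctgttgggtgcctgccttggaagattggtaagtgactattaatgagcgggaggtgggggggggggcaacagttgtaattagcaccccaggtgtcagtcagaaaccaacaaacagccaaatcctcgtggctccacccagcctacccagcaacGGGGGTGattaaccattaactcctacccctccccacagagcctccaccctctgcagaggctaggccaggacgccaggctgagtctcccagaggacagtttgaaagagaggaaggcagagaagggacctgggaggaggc
The window of 1 of the 3 Foxa2 starts, chr2:148045415-148045714 on the minus strand, held a GATA match at position 68 and a KLF match at position 203.
Foxa2 start: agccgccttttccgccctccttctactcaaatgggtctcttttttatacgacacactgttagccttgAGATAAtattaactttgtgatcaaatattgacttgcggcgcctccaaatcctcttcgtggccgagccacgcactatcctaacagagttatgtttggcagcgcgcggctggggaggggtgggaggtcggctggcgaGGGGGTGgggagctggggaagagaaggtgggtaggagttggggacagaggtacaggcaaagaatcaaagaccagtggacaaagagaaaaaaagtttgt
The Foxa1 window, chr12:57546062-57546361 on the minus strand, held a KLF match at position 50 and a forkhead match at position 110, both on the strand opposite to the one shown.
Foxa1 start: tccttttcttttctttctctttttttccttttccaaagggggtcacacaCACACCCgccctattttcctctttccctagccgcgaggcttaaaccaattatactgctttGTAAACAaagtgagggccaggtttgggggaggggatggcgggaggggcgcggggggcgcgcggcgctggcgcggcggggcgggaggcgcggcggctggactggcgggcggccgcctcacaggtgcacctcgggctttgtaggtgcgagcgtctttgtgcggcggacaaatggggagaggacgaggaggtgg
The Sox2 window, chr3:34649745-34650044 on the plus strand, held 27 CG dinucleotides and none of the 6 motifs.
Sox2 start: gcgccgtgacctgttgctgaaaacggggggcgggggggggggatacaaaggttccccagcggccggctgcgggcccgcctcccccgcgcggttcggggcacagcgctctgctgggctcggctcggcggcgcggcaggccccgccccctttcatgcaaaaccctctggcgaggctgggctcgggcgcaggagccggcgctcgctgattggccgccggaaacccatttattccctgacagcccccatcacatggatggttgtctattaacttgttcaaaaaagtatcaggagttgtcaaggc

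Peaks of both marks covered the upstream Hnf4a start in 3 of 3 libraries of every group. No library of any group had a peak of either mark over the downstream Hnf4a start. The Foxa1 window, all 3 Foxa2 windows and the Klf4 window were covered by both marks in every library. At the Sox2 start, by contrast, H3K9ac peaks lay in 3 of 3 Res_shFabp7 libraries and in 0 of 3 of Res_Ctrl, Res and Sen, and H3K27ac peaks lay in 2 of 3 Res_shFabp7 libraries and in 0 of 3 of each other group. The Nkx2-1 window, with 12 CG dinucleotides, had no peak in any library.

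H3K27ac lists held 15856 to 28934 peaks with 2.24 to 10.5 M tags, and H3K9ac lists 11771 to 18317 peaks with 2.57 to 11.5 M tags (M, 1000000). The shortest H3K27ac list was that of Sen replicate 1. Res_shFabp7 had the highest mean H3K27ac number of peaks, with 26391 ± 2967 H3K27ac peaks against 21348 ± 1524 in Res_Ctrl (SD, n = 3 each). In H3K9ac it had 17485 ± 900 peaks with 5.96 ± 1.18 M tags, against 13700 ± 2280 peaks with 3.46 ± 1.06 M tags in Res_Ctrl. Sen had 8.65 ± 3.91 M H3K9ac tags, so the groups differed in depth in this mark too. Fabp7, the targeted gene, had no peak within 1 kb in any of 24 libraries, so these data do not check the knockdown. CPM here are tags per 1000000 tags of a library in the regions present in all 12 libraries of the mark, after TMM scaling. Of 9 epithelial markers 6 had an H3K27ac region, not Cldn4, Cldn7 and Esrp1, and the summed H3K27ac over them was 2028 to 2225 CPM in Res_shFabp7, 1521 to 2650 in Res_Ctrl, 2038 to 2194 in Res and 2180 to 2437 in Sen. No endothelial marker of 7 had a region, and of 9 immune markers 7 had none, among them Ptprc, Cd3e and Itgam. Over 3 of 8 fibroblast markers the sum of H3K27ac was 29.8 to 31.3 CPM in Res_shFabp7, 22.2 to 33.3 in Res_Ctrl, 107 to 119 in Res and 0 to 36.9 in Sen, so that it was higher in Res than in any other library, alongside the differences of Res below. Summed H3K9ac over 6 of the epithelial markers was 1128 to 1230 CPM in Res_shFabp7, 1303 to 1385 in Res_Ctrl, 882 to 949 in Res and 1382 to 1422 in Sen, so that it was lower in Res than in any other library. The part of either sum in these differences was not tested.

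Res libraries stood apart from all others at 5 of the 7 tested end regions, in both marks. Foxa2, Hnf4a and Gata6 were lower, and Sox9 and Klf4 higher, in Res than in Sen, and no Res library overlapped a library of another group at these 5 regions. Res_Ctrl cells, although named resistant, differed from Sen by at most 0.56 on the log2 scale at these 5, so the differences of Res from Sen and of Res_Ctrl from Res are given side by side. Both use the Res libraries and are not independent. Changes are log2 ratios of tags with their standard error, from edgeR's quasi-likelihood test, adjusted over all tested regions of the mark, and called at an adjusted p of at most 0.05. For Res over Sen, 2 of 7 end regions were called higher and 3 lower in each mark, against 26.4% of all tested H3K27ac end regions and 52.8% of H3K9ac end regions called. For Res_Ctrl over Res, 4 were called higher and 2 lower in H3K27ac (background 30.2%), and 3 higher and 2 lower in H3K9ac (41.0%). For Res_Ctrl over Sen, 1 was called higher in H3K27ac (13.4%), and 3 higher and 1 lower in H3K9ac (30.9%). Tags grow with the length a peak was called over, which differed between groups, so changes per called base are given too.

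**Figure D1:**
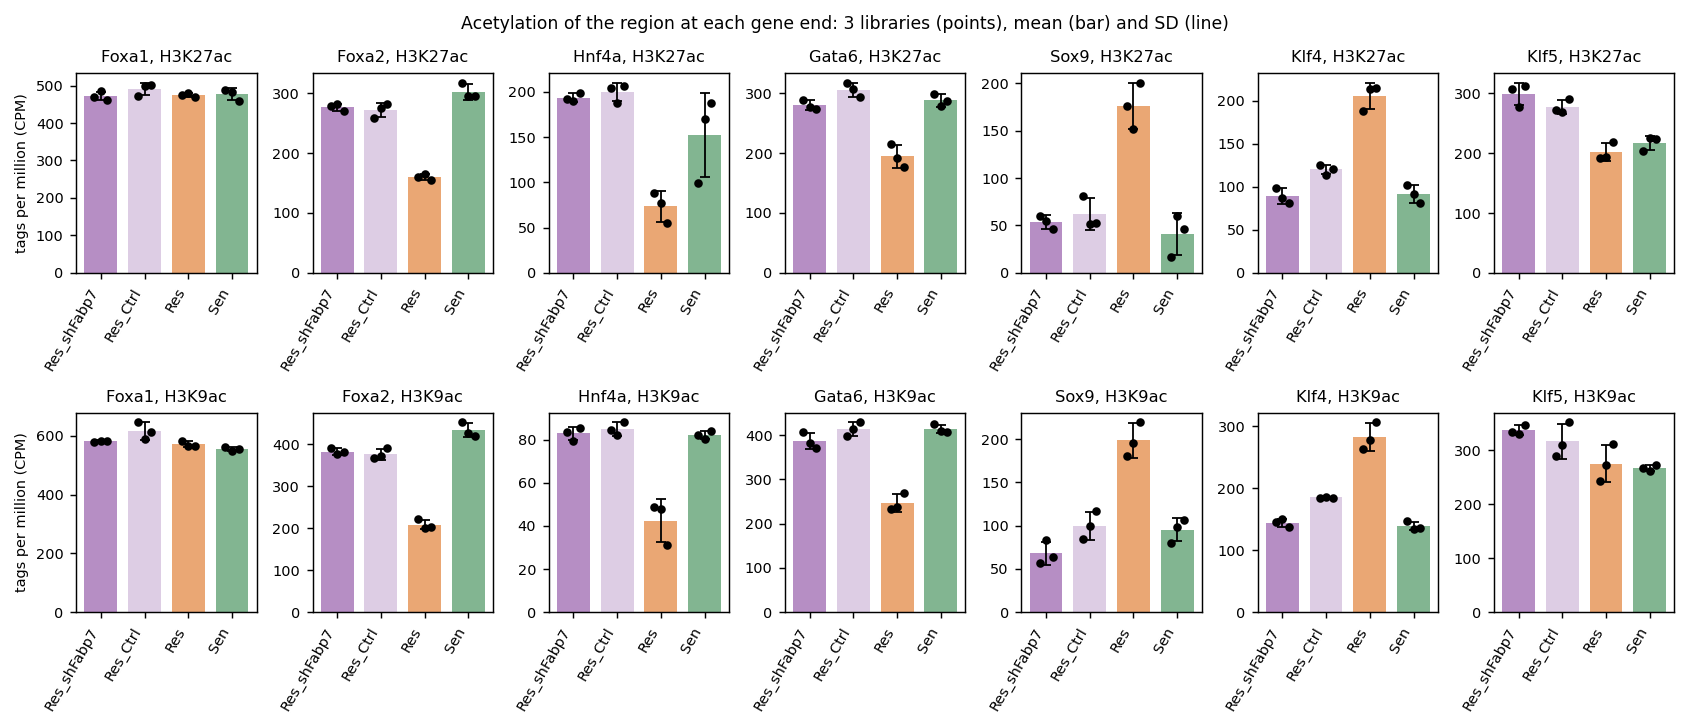
H3K27ac (upper row) and H3K9ac (lower row) of the end region of 7 genes, in CPM, in 4 groups; points are the 3 libraries, bars the mean and lines the SD. Res libraries lie below all others for Foxa2, Hnf4a and Gata6, above all others for Sox9 and Klf4, and among the others for Foxa1 (469 to 479 CPM of H3K27ac).

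Of the 2 pioneer factors, Foxa2 was called for Res over Sen and Foxa1 was not. Foxa1 (chromosome 12, 57540628 to 57548029, minus strand) had a broad H3K27ac region at 57531284 to 57547696, which it shares with the neighbouring Ttc6, with 469, 484 and 463 CPM in the Res_shFabp7 libraries, 471, 499 and 501 CPM in Res_Ctrl, 476, 479 and 469 CPM in Res and 489, 482 and 459 CPM in Sen. The groups overlapped. The change was -0.0063 ± 0.071 (SE), adjusted p = 0.955 for Res over Sen, and -0.055 ± 0.072 (SE), adjusted p = 0.735 for Res_shFabp7 over Res_Ctrl. H3K9ac at Foxa1 was 578, 583 and 582 CPM in the Res_shFabp7 libraries, 647, 587 and 612 CPM in Res_Ctrl, 582, 565 and 566 CPM in Res and 562, 547 and 554 CPM in Sen. One change of Foxa1 was called, H3K9ac in Res_Ctrl over Sen, at 0.15 ± 0.048 (SE), adjusted p = 0.0327. It was -0.061 per called base and 0.21 (adjusted p = 0.0636) with total tags as the scale, and left the threshold without Res_Ctrl replicate 1 or 3 or without Sen replicate 2 or 3.

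Foxa2 (chromosome 2, 148042877 to 148046969, minus strand) was lower in Res in both marks. Its H3K27ac end region, 148037668 to 148048028, which spans the whole gene, had 278, 281 and 269.6 CPM in the Res_shFabp7 libraries, 259, 276 and 281 CPM in Res_Ctrl, 159.8, 166 and 155 CPM in Res and 318, 295 and 295 CPM in Sen. All 3 Res libraries lay below the other 9. H3K27ac fell to 160.1 ± 5.6 CPM in Res, against 303 ± 13 CPM in Sen (SD, n = 3 each), a log2 change of -0.92 ± 0.085 (SE), adjusted p = 0.000169. Res_Ctrl, at 272 ± 11.4 CPM, was 1.7-fold above Res, with a log2 change of 0.76 ± 0.085 (SE), adjusted p = 0.000108. The called length was 9343 bases in Res_Ctrl, 6917 in Res and 9720 in Sen. Per called base the log2 changes shrank to -0.32 for Res over Sen and 0.29 for Res_Ctrl over Res, both past the threshold.

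H3K9ac at Foxa2, at 148037391 to 148047930, showed the same order, with 391, 377 and 382 CPM in the Res_shFabp7 libraries, 367, 371 and 391 CPM in Res_Ctrl, 222, 201 and 204 CPM in Res and 454, 428 and 421 CPM in Sen. It was 2.08-fold lower in Res than in Sen, with a log2 change of -1.05 ± 0.058 (SE), adjusted p = 1.8e-07. For Res_Ctrl over Res the change was 0.85 ± 0.059 (SE), adjusted p = 9.86e-07, and per called base the changes were -0.66 and 0.45. Res_Ctrl was also lower than Sen, by less, at -0.20 ± 0.051 (SE), adjusted p = 0.0101, which with total tags as the scale was -0.15 with an adjusted p of 0.193. The neighbourhood moved too: 48 other tested H3K27ac regions within 5 Mb had a median log2 change of -0.20 for Res over Sen, and 8 of them were above 0. The median of its own 5 Mb bin, a narrower set of 17 tested regions, was -0.51 in H3K27ac for Res over Sen. With the bin median removed, the log2 change of Foxa2 H3K27ac was -0.40 (adjusted p = 0.0107) for Res over Sen and 0.16 (adjusted p = 0.225) for Res_Ctrl over Res. Foxa2 H3K9ac, whose bin median was -0.16 for Res over Sen, kept -0.89 (adjusted p = 7.54e-07) and 0.67 (adjusted p = 7.35e-06).

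Past the 3' end of Foxa2, towards lower coordinates, lay several smaller regions that were mostly missing from Res. The H3K9ac region 148020816 to 148026732, 16145 bases from the gene body, had 67.4, 72 and 64.1 CPM in Res_shFabp7, 38.7, 27.8 and 26.3 CPM in Res_Ctrl and 14.1, 47.5 and 44.8 CPM in Sen, and no peak in any Res library. It was thus lost in Res against Sen and gained in Res_Ctrl against Res, though neither at a caller p of 1e-10, nor with equal numbers of peaks per list, nor where peaks had to cover 25% of the region. H3K27ac at the same place, 148020540 to 148027571, was present in 3 of 3 Res_shFabp7, 3 of 3 Res_Ctrl, 0 of 3 Res and 2 of 3 Sen libraries. A further H3K9ac region, 148012529 to 148015245, with 19, 22 and 18.1 CPM in Res_shFabp7 and 19.8, 32.5 and 28.1 CPM in Sen, had no peak in Res and 1 in Res_Ctrl, and was not lost at a caller p of 1e-10. H3K27ac at this place, 148011349 to 148016058, did have a peak in 2 of 3 Res libraries, at 23.6 and 17.8 CPM. It was present in 3 of 3 libraries of each other group.

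Hnf4a (chromosome 2, 163506811 to 163572907, plus strand) was marked at the upstream of its 2 printed starts, the first sequence above. Its H3K27ac end region, 163504902 to 163518677, had 192, 190.5 and 199 CPM in the Res_shFabp7 libraries, 205, 188 and 207 CPM in Res_Ctrl, 88.6, 77.6 and 54.8 CPM in Res and 99.2, 171 and 187 CPM in Sen. Every Res library lay below every other library, and Sen replicate 1, the shortest list, lay well below the other 2 of Sen. The mean was 73.7 ± 17.2 CPM in Res and 152 ± 46.8 CPM in Sen (SD, n = 3 each), a log2 change of -1.06 ± 0.25 (SE), adjusted p = 0.0126. Without Sen replicate 1 the change was -1.27. Res_Ctrl was 2.7-fold above Res, with a log2 change of 1.43 ± 0.15 (SE), adjusted p = 9.29e-05. The called length was 9379 bases in Res_Ctrl, 4603 in Res and 7683 in Sen, and the changes per called base were -0.24 for Res over Sen (adjusted p = 0.0213) and 0.36 for Res_Ctrl over Res (adjusted p = 0.000729).

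H3K9ac at the same start, 163505663 to 163508835, had 83.5, 79.6 and 85.7 CPM in the Res_shFabp7 libraries, 84.4, 82.1 and 88.2 CPM in Res_Ctrl, 48.6, 47.7 and 30.9 CPM in Res and 82.3, 80.5 and 84 CPM in Sen. The other 9 libraries spanned 79.6 to 88.2 CPM, all above the Res libraries. The change was -0.97 ± 0.13 (SE), adjusted p = 9.49e-05 for Res over Sen and 1.01 ± 0.15 (SE), adjusted p = 0.000218 for Res_Ctrl over Res, and per called base -0.58 and 0.60. Inside the gene, an H3K9ac region at 163513478 to 163516904 had peaks in 3 of 3 Res_shFabp7, 2 of 3 Res_Ctrl, 0 of 3 Res and 3 of 3 Sen libraries, and so was lost in Res, but not at a caller p of 1e-10 or with equal numbers of peaks per list.

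The region upstream of Hnf4a, shared with R3hdml, followed the promoter. H3K27ac at 163489239 to 163497990, 8821 bases before the gene body, had 173, 214 and 217 CPM in the Res_shFabp7 libraries, 157, 212 and 196 CPM in Res_Ctrl, 97, 94.4 and 83 CPM in Res and 144, 171 and 162 CPM in Sen. Res lay below the other groups without overlap, with a change of -0.80 ± 0.11 (SE), adjusted p = 0.0012 over Sen, and Res_Ctrl over Res changed by 1.04 ± 0.13 (SE), adjusted p = 0.0002. H3K9ac there, at 163490852 to 163495850, had 133, 125 and 124 CPM in the Res_shFabp7 libraries, 114, 104 and 107 CPM in Res_Ctrl, 52.3, 52.4 and 26.6 CPM in Res and 97.7, 101 and 102 CPM in Sen. Its change was -1.22 ± 0.17 (SE), adjusted p = 0.000111 for Res over Sen and 1.32 ± 0.19 (SE), adjusted p = 0.000165 for Res_Ctrl over Res. Per called base the changes were -0.35 and 0.41 in H3K27ac and -0.57 and 0.65 in H3K9ac. At both outer regions, shared with Fitm2 and with Ttpal, neither mark was called in Res over Sen. Within 5 Mb of the Hnf4a end region, 68 other tested H3K27ac regions had a median of -0.225 for Res over Sen, with 9 above 0. For 69 H3K9ac regions it was -0.226, with 10 above 0. With the median of its own 5 Mb bin removed, the Hnf4a end region changed by -0.86 (adjusted p = 0.0391) in H3K27ac and -0.76 (adjusted p = 0.000825) in H3K9ac.

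Gata6 (chromosome 18, 11052510 to 11085636) was lower in Res in both marks. Its H3K27ac end region, 11047655 to 11060075, had 289, 277 and 274 CPM in the Res_shFabp7 libraries, 317, 306 and 294 CPM in Res_Ctrl, 215, 193 and 177 CPM in Res and 298, 278 and 287 CPM in Sen. Res was the lowest group without overlap. H3K27ac fell to 195 ± 19.3 CPM in Res, against 288 ± 10.3 CPM in Sen (SD, n = 3 each), with a log2 change of -0.56 ± 0.098 (SE), adjusted p = 0.00333, and Res_Ctrl over Res changed by 0.65 ± 0.096 (SE), adjusted p = 0.000634, or -0.27 and 0.27 per called base. H3K9ac, at 11047589 to 11060204, had 407, 381 and 372 CPM in the Res_shFabp7 libraries, 398, 414 and 429.5 CPM in Res_Ctrl, 233, 237 and 269 CPM in Res and 425, 409 and 408 CPM in Sen. The changes were -0.74 ± 0.061 (SE), adjusted p = 2.49e-06 for Res over Sen and 0.75 ± 0.065 (SE), adjusted p = 4.41e-06 for Res_Ctrl over Res, or -0.31 and 0.25 per called base. Res_Ctrl and Sen did not differ past the threshold, at 0.0039 ± 0.049 (SE), adjusted p = 0.962. The other tested regions within 5 Mb of Gata6 had a median change for Res over Sen of -0.021 over 22 H3K27ac regions and -0.022 over 27 H3K9ac regions. The medians of its own 5 Mb bin were -0.14 in H3K27ac and -0.16 in H3K9ac. With the bin median removed, Gata6 changed by -0.42 (adjusted p = 0.0169) in H3K27ac and -0.59 (adjusted p = 2.31e-05) in H3K9ac.

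Nkx2-1 (chromosome 12, 56531935 to 56536908, minus strand) had no region of either mark within 50 kb in any of the 24 libraries. At this depth no acetylation of the gene was called in Sen cells either, so nothing at Nkx2-1 separated the groups.

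Sox9 (chromosome 11, 112782210 to 112787757) was higher in Res in both marks, and in H3K27ac by more than the other end regions of the 9 genes. H3K27ac at 112779807 to 112788742 had 60.2, 55.2 and 45.9 CPM in the Res_shFabp7 libraries, 81.5, 52 and 52.7 CPM in Res_Ctrl, 176, 151 and 200.2 CPM in Res and 16.3, 59.7 and 46.4 CPM in Sen. All 3 Res libraries lay above the other 9, whose highest was 81.5 CPM. The mean was 176 ± 24.5 CPM in Res and 40.8 ± 22.3 CPM in Sen (SD, n = 3 each), a 4.13-fold difference with a log2 change of 2.05 ± 0.33 (SE), adjusted p = 0.00244. Sen replicate 1 was the lowest library, and without it the log2 change was 1.73, adjusted p = 0.000104. For Res_Ctrl over Res it was -1.50 ± 0.18 (SE), adjusted p = 0.000179. The called length was 3300 bases in Res_Ctrl, 8027 in Res and 2704 in Sen, and per called base the changes were 0.56 for Res over Sen and -0.25 for Res_Ctrl over Res.

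H3K9ac at Sox9, at 112779890 to 112786619, had 56.7, 83.1 and 63.9 CPM in the Res_shFabp7 libraries, 84.4, 99.1 and 117 CPM in Res_Ctrl, 180.2, 196 and 219.8 CPM in Res and 80.4, 98.7 and 107 CPM in Sen. The change was 1.03 ± 0.098 (SE), adjusted p = 7.35e-06 for Res over Sen and -0.97 ± 0.11 (SE), adjusted p = 2.65e-05 for Res_Ctrl over Res, or 0.53 and -0.21 per called base. Around Sox9, 77 of 92 other tested H3K27ac regions within 5 Mb were above 0 for Res over Sen, with a median of 0.35, and Sox9 with the median of its own 5 Mb bin removed still changed by 1.54 (adjusted p = 0.012) in H3K27ac and 0.76 (adjusted p = 0.000114) in H3K9ac. An H3K27ac region 14021 bases from the gene body, at 112766166 to 112768189, had 18.8, 34 and 26.1 CPM in Res and no peak elsewhere. It was not called as gained at a caller p of 1e-10 or with equal numbers of peaks per list.

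Sox2 (chromosome 3, 34649995 to 34652461, plus strand) had a promoter peak after Fabp7 knockdown. H3K9ac at 34649620 to 34653404, over the last sequence printed above, had 71.1, 69.3 and 65.5 CPM in Res_shFabp7, from 292, 409 and 325 tags, and no peak in the other 9 libraries. It counts as gained against Res_Ctrl, 1 of 927 such H3K9ac regions among 19074, and held at a caller p of 1e-10 and with equal numbers of peaks per list. H3K27ac at 34649728 to 34653313 had 35.3, 22.1 and 41.5 CPM in Res_shFabp7, from 145, 116 and 309 tags, 12.5 CPM from 44 tags in Res_Ctrl replicate 3, and no peak in the other 2 Res_Ctrl libraries, in Res or in Sen. Because a list gives no count where no peak was called, no fold and no test can be given. Res, in turn, had an H3K9ac region 11622 bases past the gene, at 34664083 to 34665513, with 21.3, 20 and 26.9 CPM and no peak in any other library, which was not called at a caller p of 1e-10.

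Klf4 (chromosome 4, 55527137 to 55532475, minus strand) was highest in Res. Its H3K27ac end region, 55528874 to 55535811, had 98.7, 87.4 and 81.1 CPM in the Res_shFabp7 libraries, 126, 114 and 120.4 CPM in Res_Ctrl, 188, 214 and 215 CPM in Res and 102, 92.1 and 81.6 CPM in Sen. Res lay above all others without overlap, and Res_Ctrl lay between Res and the other 2 groups. The mean was 205 ± 15.2 CPM in Res and 92 ± 10.4 CPM in Sen (SD, n = 3 each), a log2 change of 1.16 ± 0.12 (SE), adjusted p = 0.000228, and Res_Ctrl over Res changed by -0.77 ± 0.097 (SE), adjusted p = 0.000232. H3K9ac, at 55528899 to 55535320, had 145, 151 and 138 CPM in the Res_shFabp7 libraries, 185, 186 and 185 CPM in Res_Ctrl, 263, 278 and 307 CPM in Res and 147, 135 and 135 CPM in Sen. The changes were 1.03 ± 0.067 (SE), adjusted p = 4.64e-07 for Res over Sen, -0.61 ± 0.066 (SE), adjusted p = 2.36e-05 for Res_Ctrl over Res and 0.42 ± 0.056 (SE), adjusted p = 0.000156 for Res_Ctrl over Sen. Per called base, Res over Sen was 0.53 in H3K27ac and 0.55 in H3K9ac, Res_Ctrl over Res -0.25 and -0.33, and Res_Ctrl over Sen 0.21 in H3K9ac.

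Regions around Klf4 had changes of a similar size. Of 42 other tested H3K27ac regions within 5 Mb, 40 were above 0 for Res over Sen, with a median of 1.12 against 1.16 at Klf4, and of 36 H3K9ac regions 35 were above 0, with a median of 0.96 against 1.03. With the median of its 5 Mb bin removed, the Klf4 change for Res over Sen was 0.039 (adjusted p = 0.899) in H3K27ac and 0.10 (adjusted p = 0.289) in H3K9ac. For Res_Ctrl over Res it was -0.079 (adjusted p = 0.632) and -0.037 (adjusted p = 0.746), and for Res_Ctrl over Sen in H3K9ac 0.025 (adjusted p = 0.831). A change of the end region cannot be told apart here from a change of the whole segment. H3K27ac at 55540143 to 55544356, 7668 bases from the gene body, changed by more. It had 68.2, 85.9 and 109 CPM in Res, 26.2, 22.2 and 22.8 in Res_Ctrl, and 21.8 and 17.8 in 2 Sen libraries. For Res_Ctrl over Res it changed by -1.88 ± 0.19 (SE), adjusted p = 6.62e-05, against a bin median of -0.69. Its called length was 4025 bases in Res and 1413 in Res_Ctrl. H3K9ac there had a peak in 2 of 3 Res libraries and 1 of 3 of each other group. Beside the gene, H3K27ac at 55514354 to 55515821 had 19.7, 23.5 and 19.7 CPM in Res and no peak in the other 9 libraries, and was not called at a caller p of 1e-10. H3K9ac at 55514362 to 55515699 had a peak in every Res library, in 1 Res_shFabp7 library and in none of Res_Ctrl and Sen.

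**Figure D2:**
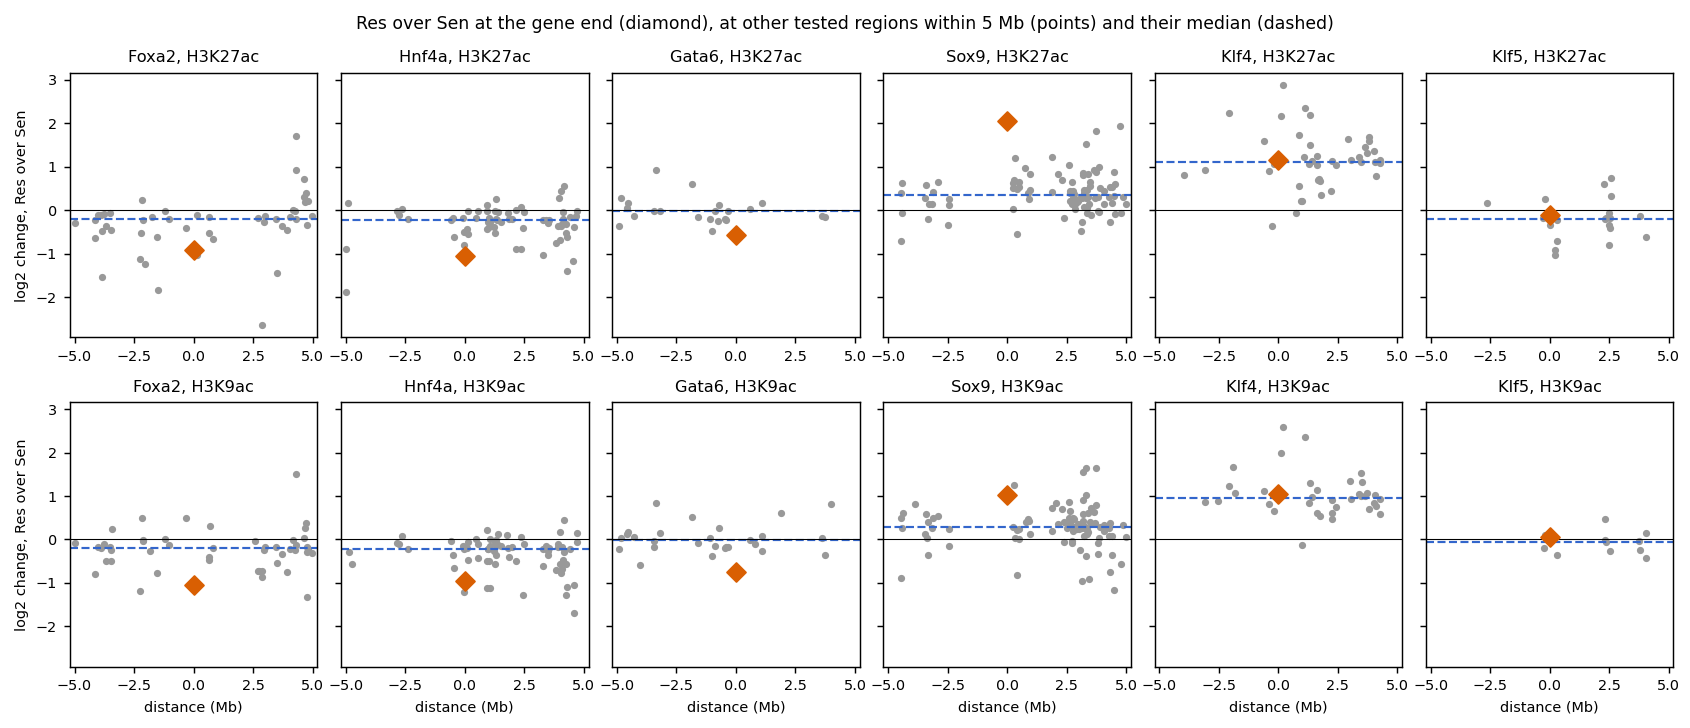
Log2 change of Res over Sen (vertical) at the end region of 6 genes (diamond) and at the other tested regions within 5 Mb (points), by distance in Mb, H3K27ac above and H3K9ac below; the dashed line is the median of the points. Klf4 sits on the median of its neighbours (1.12 in H3K27ac), Sox9 far above its own (0.35), and Foxa2, Hnf4a and Gata6 below theirs.

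Klf5 (chromosome 14, 99298691 to 99313412) was not called for Res over Sen. H3K27ac at 99294641 to 99312343 had 308, 278 and 312 CPM in the Res_shFabp7 libraries, 272, 269 and 291 CPM in Res_Ctrl, 192, 193 and 219 CPM in Res and 204, 225 and 223 CPM in Sen. Res and Sen overlapped, and the change was -0.11 ± 0.095 (SE), adjusted p = 0.394. Res_Ctrl was higher than Res, at 0.46 ± 0.09 (SE), adjusted p = 0.00295, and higher than Sen, at 0.35 ± 0.088 (SE), adjusted p = 0.0265. Per called base, however, the Res_Ctrl over Res change turned to -0.26 (adjusted p = 0.00455). The call against Sen left the threshold with total tags as the scale (0.28), per called base (-0.057), with the 5 Mb median removed (0.22), and without Res_Ctrl replicate 2 or 3 or without Sen replicate 2 or 3. H3K9ac at 99294590 to 99307862 had 335, 329.9 and 347 CPM in the Res_shFabp7 libraries, 289, 309 and 352 CPM in Res_Ctrl, 243, 272 and 311 CPM in Res and 267, 262 and 273 CPM in Sen. Its change of 0.25 ± 0.067 (SE), adjusted p = 0.0124 for Res_Ctrl over Sen became -0.12 per called base and left the threshold without Res_Ctrl replicate 3 or Sen replicate 2.

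A region far past Klf5 was nearly absent from Res. H3K9ac at 99362636 to 99367640, 49224 bases from the gene body, had 54.8, 80.8 and 62.1 CPM in Res_shFabp7, 54.8, 49.7 and 80.3 CPM in Res_Ctrl and 105, 104 and 100.3 CPM in Sen, and no peak in Res. It was lost in Res against Sen and gained in Res_Ctrl against Res, also at a caller p of 1e-10, and Res_Ctrl was below Sen, at -0.71 ± 0.13 (SE), adjusted p = 0.00156. H3K27ac there had a peak in 1 of 3 Res libraries and in every library of the other groups. Closer in, 8983 bases past the gene, H3K27ac at 99322395 to 99327189 had 88, 107 and 109 CPM in the Res_shFabp7 libraries, 95.4, 119 and 120.1 CPM in Res_Ctrl, 49.6, 55.5 and 75.8 CPM in Res and 67, 75.6 and 84.1 CPM in Sen, with a change of 0.89 ± 0.17 (SE), adjusted p = 0.00242 for Res_Ctrl over Res. The median of the 5 Mb bin of Klf5 was 0.57 in that comparison, and the called length was 3587 bases in Res_Ctrl and 2415 in Res. Res_Ctrl was also higher than Sen, at 0.55 ± 0.14 (SE), adjusted p = 0.0277. Res over Sen was not called, at -0.34 ± 0.17 (SE), adjusted p = 0.176. This last region was chosen after its values were seen.

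**Figure D3:**
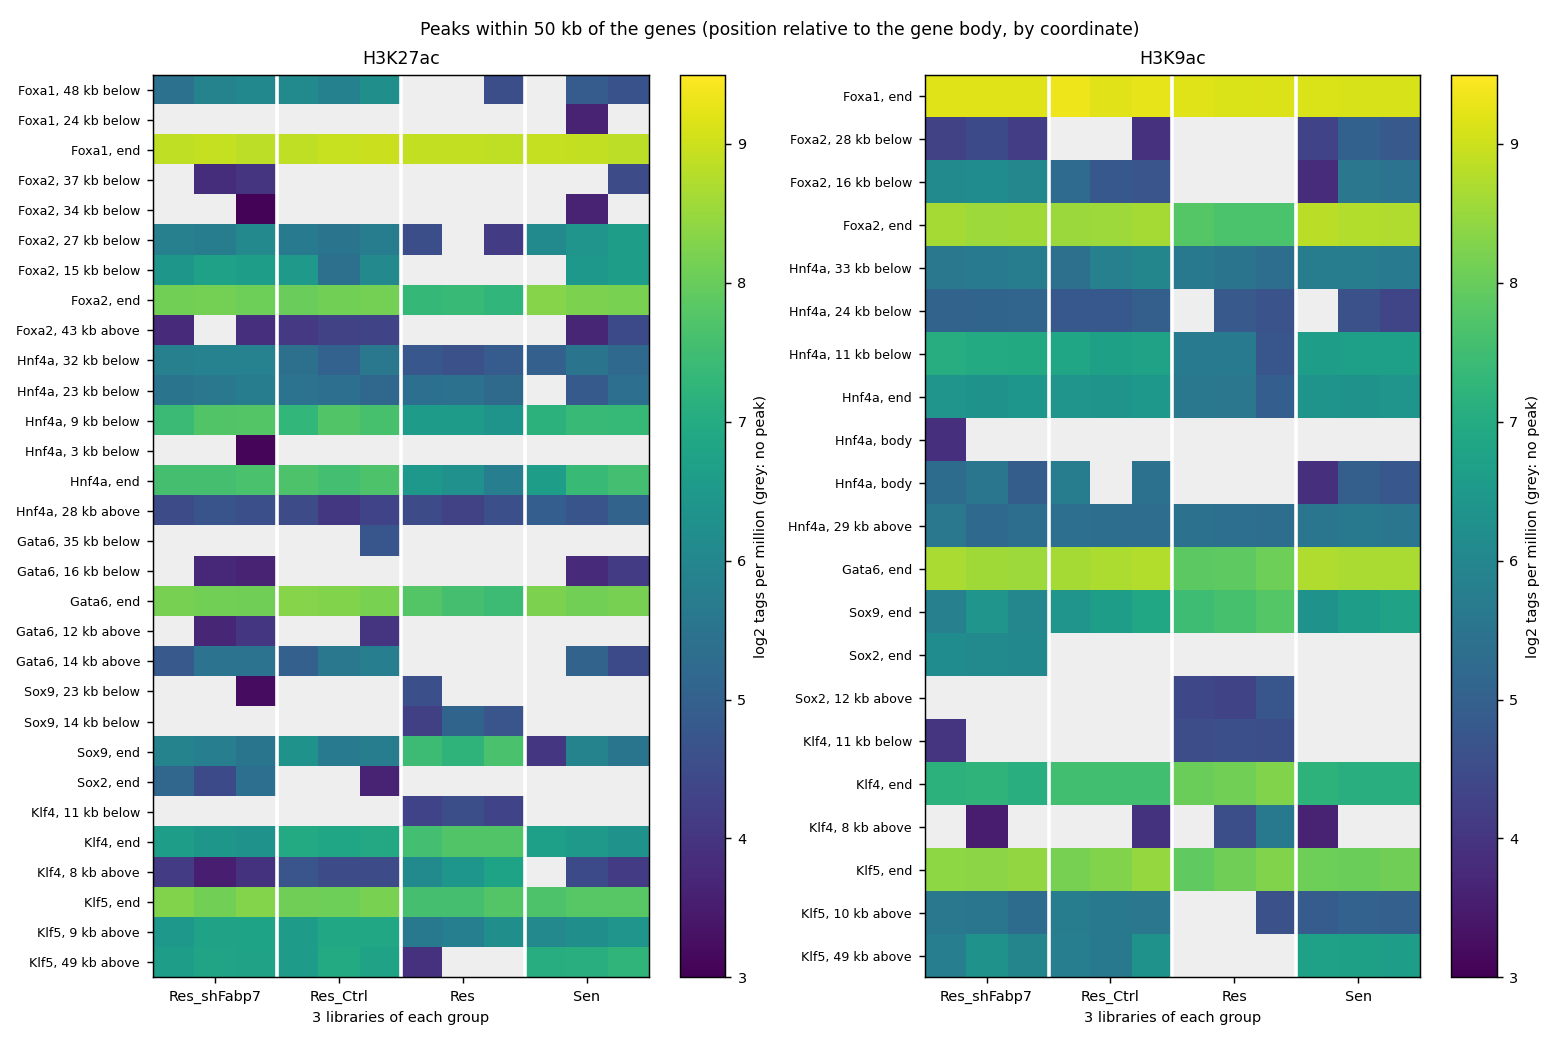
Log2 CPM of every region within 50 kb of the genes (one line per region, labelled by its distance below or above the gene body in coordinates), in the 3 libraries of each group, H3K27ac left and H3K9ac right; grey means that no peak was called. The end regions are marked in every library apart from Sox2, which is marked in Res_shFabp7 and, in H3K27ac, in 1 Res_Ctrl library. Several regions beside Foxa2, Gata6 and Klf5 are grey in most or all Res libraries. Some of those beside Foxa2 and Gata6 are also grey in most or all Sen libraries.

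Over all regions within 50 kb, those gained or lost in Res against Sen lay beside or inside the genes, not at their ends. Counts here are over the regions with a peak in at least 1 library of the 2 groups, and so are the shares of all regions. Of 19 such H3K9ac regions, 2 were gained and 4 lost in Res against Sen, where 2.24% and 11.9% of 18184 were gained and lost. Of 26 H3K27ac regions 2 were gained and 0 lost (5.98% and 3.35% of 26993). At a caller p of 1e-10, 0 H3K9ac regions were gained and 2 lost, both past Klf5. The one 49224 bases from the gene body was also lost above, and the one at 9877 bases was not. In H3K27ac, at this caller p, 0 were gained and 1 lost. Without Sen replicate 1, the shortest list, 4 H3K27ac regions also counted as lost, 2 beside Foxa2 and 2 beside Gata6. For Res_Ctrl against Res, 3 of 25 H3K27ac regions were gained and 2 lost (5.56% and 5.24% of 26430), and 2 of 19 H3K9ac regions each way (2.49% and 2.01% of 16995). Between Res_Ctrl and Sen no region of 26 was gained or lost in H3K27ac (2.24% and 0.943% of 25334) or of 17 in H3K9ac (0.531% and 4.96% of 18094). The marks largely coincided: 20 of 21 H3K9ac regions overlapped an H3K27ac region, whereas 18 of 30 H3K27ac regions overlapped an H3K9ac one.

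After knockdown of Fabp7 most tested regions of the 9 genes were not called. For Res_shFabp7 over Res_Ctrl, 1 of 18 tested H3K27ac regions was called, against 3.31% of all tested, and 4 of 14 H3K9ac regions, 2 higher and 2 lower, against 7.64%. At gene ends these were 1 of 7 in H3K27ac (1.72% of all tested end regions) and 2 of 7 in H3K9ac (5.69%). Of 27 H3K27ac regions with a peak in either group none was gained or lost (3.95% and 0.0985% of 29430), and of 20 in H3K9ac 1 was gained and none lost (4.86% and 0.0262% of 19074). In H3K27ac the log2 change of Foxa2 was 0.023 ± 0.076 (SE), adjusted p = 0.909. That of Hnf4a was -0.044 ± 0.081 (SE), adjusted p = 0.817, that of Gata6 -0.13 ± 0.075 (SE), adjusted p = 0.4, and that of Klf5 0.11 ± 0.081 (SE), adjusted p = 0.518. In H3K9ac these 4 end regions and Foxa1 had adjusted p-values between 0.211 and 0.808. A p above the threshold does not show that they were equal. Whether the replicate numbers pair the H3K27ac libraries is not established. Pairing by them raised the calls over all regions from 532 to 1426 of 16069, while the calls at the 9 genes stayed at 1.

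Klf4 and Sox9, which were higher in Res, were the end regions called lower after the knockdown. H3K9ac of Klf4 was 145 ± 6.37 CPM in Res_shFabp7 and 185 ± 0.963 CPM in Res_Ctrl (SD, n = 3 each), a log2 change of -0.36 ± 0.054 (SE), adjusted p = 0.00229. It was -0.16 per called base (adjusted p = 0.0845) and -0.19 with the 5 Mb median removed (adjusted p = 0.0696). H3K27ac of Klf4 was 89.1 ± 8.91 CPM in Res_shFabp7 and 120.0 ± 5.71 CPM in Res_Ctrl, with a log2 change of -0.44 ± 0.1 (SE), adjusted p = 0.0494, which left the threshold without Res_shFabp7 replicate 2 or 3 or without any 1 Res_Ctrl library (-0.51 to -0.37 over all 6) and was -0.44 with an adjusted p of 0.0181 when paired. With the 5 Mb median removed it was -0.15 (adjusted p = 0.566). H3K9ac of Sox9 was 67.9 ± 13.7 CPM in Res_shFabp7 and 100.0 ± 16.1 CPM in Res_Ctrl, with a log2 change of -0.56 ± 0.14 (SE), adjusted p = 0.0293. It was -0.25 per called base (adjusted p = 0.0248) and -0.48 with the 5 Mb median removed (adjusted p = 0.0783). It lost the call without Res_shFabp7 replicate 1 or 3 or Res_Ctrl replicate 2 or 3 (-0.74 to -0.42 over all 6), and H3K27ac of Sox9 was not called (-0.22 ± 0.19 (SE), adjusted p = 0.572).

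Higher after the knockdown were H3K9ac regions beside Foxa2 and Hnf4a. The region 16145 bases past Foxa2 was 67.8 ± 3.95 CPM in Res_shFabp7 and 31 ± 6.76 CPM in Res_Ctrl (SD, n = 3 each), without overlap, and changed by 1.16 ± 0.13 (SE), adjusted p = 0.000525. Its called length was 4890 bases in Res_shFabp7 and 1591 in Res_Ctrl, and per called base the change turned to -0.24 (adjusted p = 0.158). The region shared by Hnf4a and R3hdml changed by 0.24 ± 0.065 (SE), adjusted p = 0.0453, and left the threshold without any 1 Res_shFabp7 library and without Res_Ctrl replicate 2 or 3 (0.21 to 0.27 over all 6). It was 0.061 per called base (adjusted p = 0.615) and 0.14 with total tags as the scale (adjusted p = 0.333), and the call was also lost with the 5 Mb median removed.

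**Figure D4:**
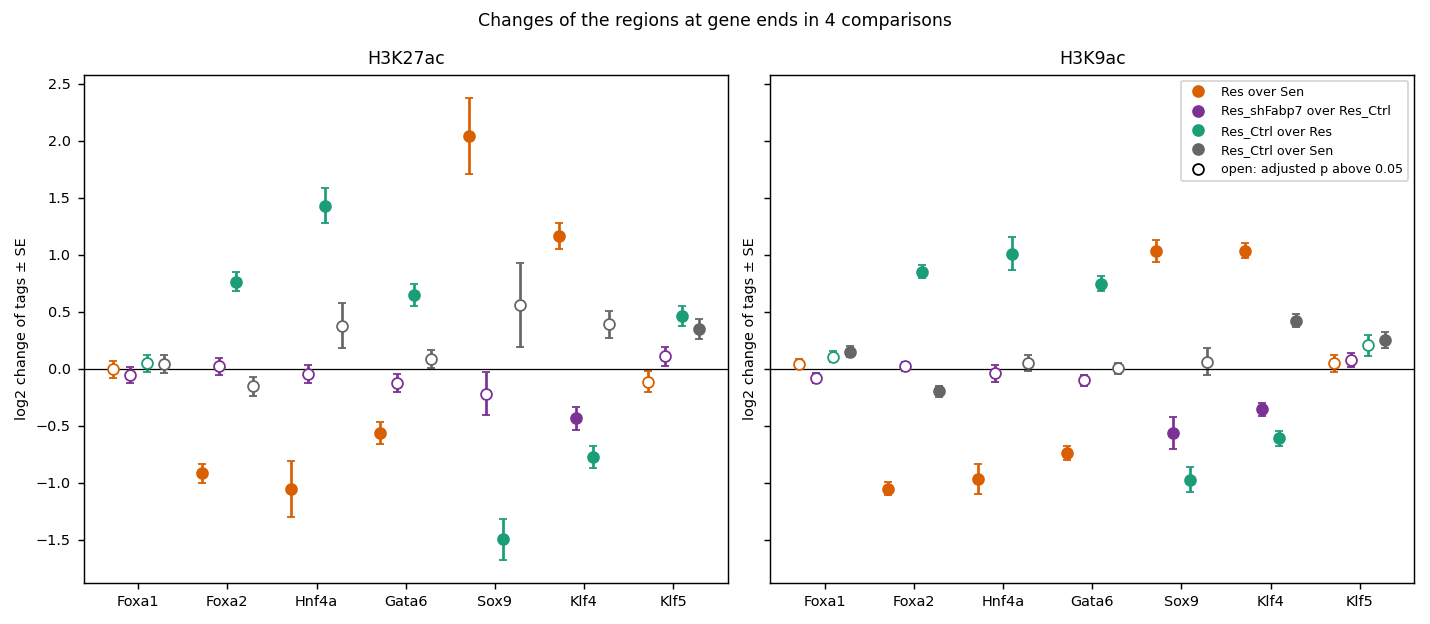
Log2 change ± SE of tags at the end regions of 7 genes in 4 comparisons, H3K27ac left and H3K9ac right; filled points have an adjusted p of at most 0.05. Res over Sen and Res_Ctrl over Res, which share the Res libraries, point in opposite directions at Foxa2, Hnf4a, Gata6, Sox9 and Klf4, while Res_Ctrl over Sen stays between -0.20 and 0.56.

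Related genes were read at their own end regions. Of 34 further foregut and lung regulators, 18 had an H3K27ac region and 14 were tested for Res over Sen, with 1 higher and 5 lower and a median log2 change of 0.09 against -0.0095 over all end regions, of which 26.4% were called. In H3K9ac 5 of 14 were higher and 4 lower, against 52.8% of all called. Onecut2, a liver-enriched factor, had 236 ± 27 CPM in Res and 531 ± 18.1 CPM in Sen (SD, n = 3 each) of H3K27ac, a log2 change of -1.17 ± 0.098, adjusted p = 0.000114, and -1.25 in H3K9ac, or -0.49 and -0.80 per called base. Irx3 changed by -0.72 ± 0.17, adjusted p = 0.0133, and the intestinal factor Cdx2 by -0.63 ± 0.13, adjusted p = 0.00619, in H3K27ac, and per called base the Cdx2 change was 0.0067. The Irx3 call was lost without Res replicate 2, at -0.64, and per called base, at -0.043. Ehf, an epithelial Ets factor, had peaks of both marks in 3 of 3 Sen libraries and in none of Res. Foxj1, the regulator of motile cilia, lost its H3K27ac region in the same way. In Res against Sen 2 of 18 end regions of this list were lost and 0 gained in H3K27ac (3.35% and 5.98% of all regions). In H3K9ac 1 of 18 was lost and 0 gained (11.9% and 2.24%).

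Of 29 relatives of the 9 genes in their own families, 9 were tested for H3K27ac in Res over Sen, with 4 higher and 1 lower and a median of 0.33 (26.4% of all end regions called, median -0.0095), and 12 for H3K9ac, with 9 higher and 1 lower and a median of 0.28 (52.8% called, median -0.0058). Klf6 had 382 ± 4.24 CPM in Res and 283 ± 32.4 CPM in Sen (SD, n = 3 each) of H3K27ac, a log2 change of 0.43 ± 0.097, adjusted p = 0.0111. Nkx2-3, a homeobox relative of Nkx2-1, had 69.5 ± 18.4 CPM in Res and 26.9 ± 0.63 CPM in Sen (SD, n = 3 each) of H3K9ac, a log2 change of 1.37 ± 0.17, adjusted p = 6.22e-05. Klf2 had 42.8 ± 4.46 CPM in Res and 21.3 ± 4.15 CPM in Sen (SD, n = 3 each) of H3K9ac, a log2 change of 0.97 ± 0.16, adjusted p = 0.000351, and after the knockdown -0.53 ± 0.14, adjusted p = 0.0401. Sox13 rose by 0.55 ± 0.14, adjusted p = 0.0202, and Klf16 changed by -0.54 ± 0.12, adjusted p = 0.00995, in H3K27ac. Klf13 changed by 0.41 ± 0.1, adjusted p = 0.0161, which was -0.036 per called base. Per called base the changes for Res over Sen were 0.19 at Klf6, 0.45 at Nkx2-3, 0.46 at Klf2, -0.27 at Klf16 and, no longer called, 0.14 at Sox13. Sox13 was 0.11 (adjusted p = 0.613) with regions merged over 6 lists, and 0.45 (adjusted p = 0.0602) with the 5 Mb median removed. The Klf16 change was -0.27 with the 5 Mb median removed (adjusted p = 0.169). Leaving out 1 library ended the call of Klf13 without Res replicate 2 or Sen replicate 3, and that of Sox13 without Res replicate 2 or 3 or Sen replicate 3, where it was 0.44. The knockdown call of Klf2 was lost without any 1 library but Res_Ctrl replicate 2 (-0.40 without Res_Ctrl replicate 1), and also with the 5 Mb median removed (-0.35). In Res against Sen 2 of 16 end regions of the relatives were gained and 0 lost in H3K27ac (5.98% and 3.35% of all regions). In H3K9ac 1 of 15 was gained and 1 lost (2.24% and 11.9%).

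Of 26 liver and gut differentiation genes 4 were tested for H3K27ac in Res over Sen, with 2 lower, none higher and a median of -0.45 (26.4% of all end regions called, median -0.0095), and 2 for H3K9ac, both lower (52.8% called). Cdh17, an intestinal cadherin, had 115 ± 18 CPM in Res and 319 ± 69.9 CPM in Sen (SD, n = 3 each) of H3K27ac, a log2 change of -1.48 ± 0.18, adjusted p = 0.000572. Its H3K9ac region, at 157 CPM in Sen, had no peak in Res. Krt20, a keratin of the gut surface, changed by -0.86 ± 0.27, adjusted p = 0.0403, in H3K27ac, and by -0.64 ± 0.14, adjusted p = 0.00307, in H3K9ac, and per called base these became -0.28 and 0.27, while Cdh17 H3K27ac became -0.49. Apob, the protein of liver and gut lipoproteins, lost its regions of both marks in Res, at 44.9 CPM of H3K27ac and 58.0 CPM of H3K9ac in Sen. Lgals4 lost its H3K27ac region, and Apoa1 and Vil1 their H3K9ac regions. On this list 2 of 10 end regions were lost and 0 gained in H3K27ac (3.35% and 5.98% of all regions). In H3K9ac 4 of 8 were lost and 0 gained (11.9% and 2.24%). After the knockdown Tff1, a gastric trefoil peptide, had 63 ± 23.6 CPM in Res_shFabp7 and 132 ± 14.3 CPM in Res_Ctrl (SD, n = 3 each) of H3K27ac, a log2 change of -1.04 ± 0.23, adjusted p = 0.0369, or -0.45 per called base. This call was lost without Res_shFabp7 replicate 2 (-1.14) or Res_Ctrl replicate 2 (-0.98) or 3 (-1.01), and that of Krt20 H3K27ac without Res replicate 3 (-0.93) or Sen replicate 2 (-0.87) or 3 (-0.78).

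Of 22 lung differentiation genes 7 were tested for H3K27ac in Res over Sen, with 1 higher and 2 lower and a median of 0.07 (26.4% of all end regions called, median -0.0095), and 6 for H3K9ac, with 1 higher and 2 lower and a median of -0.15 (52.8% called, median -0.0058). The surfactant gene Sftpc, whose region is shared with Bmp1, changed by -0.60 ± 0.17, adjusted p = 0.0291, and the surfactant lipid transporter Abca3, shared with Abca17, by -0.72 ± 0.21, adjusted p = 0.0292, in H3K27ac. Neither call held without Res replicate 2 or Sen replicate 1 or 2, that of Sftpc also not without Res replicate 1 and that of Abca3 not without Res replicate 3. Without Sen replicate 1 the changes were -0.45 at Sftpc and -0.53 at Abca3, and per called base -0.27 and -0.26. With regions merged at 1000 bases Sftpc was -1.02. Aqp5, a water channel of alveolar type I cells, shared with Aqp2, had 214 ± 21.7 CPM in Res and 142 ± 8.65 CPM in Sen (SD, n = 3 each), a log2 change of 0.59 ± 0.11, adjusted p = 0.0041, which was 0.06 per called base. In Res against Sen 1 of 7 H3K9ac end regions of this list was gained and 0 lost (2.24% and 11.9% of all regions). Of 9 in H3K27ac, 0 were gained or lost (5.98% and 3.35%).

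Across the 12 libraries of a mark, the gene whose end region was most like each factor, by Pearson's r of log2 CPM over 8693 genes in H3K27ac, was Deaf1 for Foxa2 (r = 0.992), Arhgef28 for Gata6 (0.975), Arfgef2 for Hnf4a (0.958), Tsc22d1 for Sox9 (0.969), Tiparp for Klf4 (0.979) and Prss22 for Klf5 (0.946). For Foxa1 it was Scnm1 (0.764). Over 9388 genes in H3K9ac the closest were Oxr1 for Foxa2 (0.995), R3hdml, the neighbour upstream, for Hnf4a (0.978), and Atp5d for Gata6 (0.982). Among the factors themselves, H3K27ac of Foxa2 had an r of 0.928 with Gata6, 0.805 with Hnf4a and -0.905 with Sox9. These values describe 12 libraries in 4 groups, share the group differences and the depth of each library, and carry no test.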

How the data were processed

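Peak lists of 24 immunoprecipitated libraries (H3K27ac and H3K9ac, 4 groups of 3) were analysed, and the 4 inputs are not analysed here. Bowtie 1.1.2, MACS 1.4.2 and mm10 are named in the submitters' processing notes. Reads were single, of 50 bases, with 53 to 158 M reads per sample, per the labels. The authors deposited 1 list per library, with unscaled tag counts per peak. Its deposited score is the -log10 p-value multiplied by 10 (lowest 50, a p of 1e-05), used only as a threshold. The deposited fold ratio of a peak was not used. The caller's control and the treatment of duplicate reads are not given in the sources used here. A region without a peak has no deposited count.

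Peaks overlapping by 1 base or more over the 12 lists of a mark were merged. Regions with a peak in all 6 libraries of a comparison were tested on summed counts with edgeR 4.0.16 (R 4.3.3; quasi-likelihood, group as the only term, TMM on regions present in all 12 libraries, Benjamini-Hochberg over all tested regions). A region was gained with peaks in 3 of 3 libraries against 0 of 3, and lost in the reverse case, which has no test. The end region of a gene is the one within 1 kb of an annotated end with the most tags. Called bases are the bases that the peaks of a library cover in a region. In simulated counts with the same spread for every region, the fit recovered 34.3 to 46.3% of 1.5-fold changes. It recovered 94.0 to 100% of 2-fold changes, so smaller changes can be missed. Peak lists of the same group held different values, and each library counted as 1 replicate.

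Every correlation of the deviations of same-numbered libraries was above 0.1 only in H3K27ac of Res_shFabp7 against Res_Ctrl (0.187 to 0.419) and of Res_Ctrl against Res (0.102 to 0.382). Differently numbered libraries came near or above the lowest of these. The correlation was 0.162 for Res_shFabp7 replicate 2 with Res_Ctrl replicate 3, and 0.167 for Res_Ctrl replicate 2 with Res replicate 3. Pairing by replicate number is therefore not established, and paired values are given only as an alternative.

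The 9 genes and the gene lists were chosen with earlier results of these data known. All 9 genes are named. Distal regions are named where they had the largest called change, or were gained or lost, in Res over Sen or Res_shFabp7 over Res_Ctrl; the other regions described beside genes were chosen after their values were seen. Of each list up to 4 genes with the largest called change per mark in these 2 comparisons are named, and genes with a gained or lost region were chosen after their values were seen. Alternatives covered scaling, filters, merging, windows, the DESeq2 1.42.0 test, pairing, called length, neighbourhood and leaving out each library.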

Additional observations from a re-analysis of the deposited data

How the results depend on the processing

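Of 35 called changes of the end regions and named distal regions, 587 values under alternatives were computed: 532 kept direction and call, 49 kept the direction and left the threshold, and 6 turned round. The counts of called regions rest on few regions and move with the setting. A region absent from a list has no count, so sites near the caller's threshold, above all in the short H3K27ac list of Sen replicate 1, can seem absent. The libraries of Res_Ctrl, Res and Sen each enter more than 1 comparison. The cause of the shifts below was not tested, and dividing by called length tests no cause either.

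Per called base, log2 changes of Res over Sen became 0.069 at Foxa1, 0.20 at Klf5, 0.0067 at Cdx2 and -0.036 at Klf13 in H3K27ac, and -0.15 at Foxa1, 0.023 at Foxa3 and 0.27 at Krt20 in H3K9ac. Those of Res_shFabp7 over Res_Ctrl became 0.14 at Foxa1, 0.011 at Gata6 and -0.019 at Klf5 in H3K27ac, and 0.12 at Foxa1, -0.080 at Klf5 and -0.24 at the distal Foxa2 region in H3K9ac. For Res_Ctrl over Res they became -0.038 at Foxa1 and -0.26 at Klf5 in H3K27ac and -0.38 at Klf5 in H3K9ac. For Res_Ctrl over Sen they became -0.0036 at Gata6 and -0.057 at Klf5 in H3K27ac, and -0.061 at Foxa1, -0.058 at Gata6, -0.12 at Klf5 and 0.31 at the distal Foxa2 region in H3K9ac. Of these, the Res_Ctrl over Res change of Klf5 in H3K27ac had been called. So had the Res_Ctrl over Sen changes of Klf5 in both marks and of Foxa1 in H3K9ac. Also called were the Res over Sen changes of Cdx2, Klf13, Foxa3 and Krt20 and the distal Foxa2 change after the knockdown. The Res over Sen changes of Foxa1 and Klf5 had not been called.

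With total tags in peaks as the scale, which shifted the median of all regions by -0.10 for Res over Sen in H3K27ac and by -0.0901 to 0.0716 elsewhere, Foxa2 became -0.045 (H3K27ac) and -0.069 (H3K9ac), and Klf5 -0.0038 (H3K9ac), for Res_shFabp7 over Res_Ctrl, and Foxa1 -0.041 for Res_Ctrl over Sen in H3K27ac. With the median of the 5 Mb window removed, H3K27ac became -0.0037 at Foxa2 and -0.010 at Klf5 for Res_shFabp7 over Res_Ctrl, -0.10 at Klf5 for Res_Ctrl over Res and -0.046 at Klf4 for Res_Ctrl over Sen. H3K9ac became -0.12 at Foxa1 for Res over Sen, -0.0017 at Foxa2 for Res_shFabp7 over Res_Ctrl, and -0.025 at Gata6 and -0.063 at Sox9 for Res_Ctrl over Sen. Merging gave 0.033 at Hnf4a after the knockdown (1000 bases) and, at Gata6 for Res_Ctrl over Sen, -0.0025 (6 lists) and -0.0029 (1000 bases), in H3K9ac.

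Called H3K27ac regions after the knockdown numbered 1, but 0 with DESeq2 size factors, with a fit of 12 libraries, with either other merging and with the 5 Mb median removed, and 3 per called base. In H3K9ac they numbered 4, but 2 in the fit of 12 libraries, 1 per called base and 1 with the 5 Mb median removed. The 5 Mb median also took the H3K27ac count to 5 instead of 10 for Res_Ctrl over Res and to 1 instead of 3 for Res_Ctrl over Sen. Gained or lost regions at a caller p of 1e-10 numbered 1 lost in place of 2 gained (H3K27ac, Res against Sen), 1 in place of 0 (H3K27ac, Res_shFabp7 against Res_Ctrl), 2 lost in place of 2 gained and 4 lost (H3K9ac, Res against Sen) and 2 gained in place of 2 gained and 2 lost (H3K9ac, Res_Ctrl against Res). With equal numbers of peaks the last pair were again 2 and 2, H3K27ac of Res against Sen had 1 gained and 2 lost, and H3K9ac of Res_Ctrl against Sen had 1 in place of 0.

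Leaving out 1 library, gained or lost H3K27ac regions ranged from 2 to 6 (Res against Sen), 0 to 2 (Res_shFabp7 against Res_Ctrl) and 0 to 1 (Res_Ctrl against Sen), and H3K9ac ones from 1 to 2 (Res_shFabp7 against Res_Ctrl) and 0 to 1 (Res_Ctrl against Sen). Called regions ranged from 0 to 1 and 2 to 4 after the knockdown (H3K27ac and H3K9ac) and from 0 to 6 for H3K27ac of Res_Ctrl over Sen. Uncalled changes that crossed 0 were those of Foxa1 (-0.033 to 0.012) for Res over Sen, and of Foxa2 (-0.011 to 0.047), Sox9 (-0.33 to 0.031) and the region shared by Hnf4a and R3hdml (-0.011 to 0.20) after the knockdown in H3K27ac. In H3K9ac they were those of Klf5 (-0.051 to 0.13) for Res over Sen, and of Gata6 (-0.025 to 0.030) and Sox9 (-0.078 to 0.16) for Res_Ctrl over Sen.

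With the replicate number as a block, 5 H3K27ac regions in place of 3 were called for Res_Ctrl over Sen, where the numbers do not pair the libraries (correlations 0.0932 to 0.333), and the block moved no other count of called regions beside these genes by over 1.5 times. Correlations of same-numbered libraries were 0.0719 to 0.274 for H3K27ac of Res over Sen. In H3K9ac they were -0.0558 to 0.152 for Res over Sen, -0.0443 to 0.0422 after the knockdown, -0.0165 to 0.0977 for Res_Ctrl over Res and 0.0307 to 0.142 for Res_Ctrl over Sen, which do not pair the libraries.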
